A study of Mus musculus with 6 samples.

Results

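The transcripts of 10 genes that B-cells use to answer CD40 and NF-κB signals were followed through the states of mouse germinal center (GC) B-cells by single cell RNA-seq. The genes were *Cd40*, *Traf1*, *Nfkbia*, *Nfkb2*, *Relb*, *Cd83*, *Cd86*, *Icam1*, *Il4i1* and *Ebi3*, chosen by symbol from the 31053 genes of the deposited matrices, and each symbol matched 1 gene. All 6 libraries were made from sorted spleen cells of mice that had been immunized with sheep red blood cells and carried the *Cγ1*-Cre allele, whose recombinase is switched on as B-cells join the GC. By their labels, 3 libraries were controls with intact *Smc3* (*Smc3* wt/wt, genotype Cgamma1-Cre WT Control) and 3 were heterozygous (*Smc3* wt/-, genotype Cgamma1-Cre Smc3 +/-). *Smc3* encodes a core subunit of cohesin, a ring-shaped complex that shapes chromosome loops, and the heterozygous allele is lost only where the Cre has acted. The labels give no age, and the sources used here give a number of mice per genotype but not which mice made up each library, so the p-values below measure the spread between libraries.

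Centrocytes in the light zone of the GC compete for help from T follicular helper cells, which carry the CD40 ligand. CD40 recruits TRAF adaptors and switches on NF-κB along a canonical route, in which the inhibitor IκBα is degraded and REL family dimers enter the nucleus, and a non-canonical route, in which the p100 precursor encoded by *Nfkb2* is processed and pairs with RELB. Many of the genes that these dimers switch on act back on the route itself, among them *Nfkbia*, *Nfkb2*, *Relb* and *Traf1*, and others, such as *Cd83*, *Cd86* and *Icam1*, mark an activated B-cell surface. B-cells that have received help transiently express *Myc*, which is why *Myc* transcripts are used as a mark of selected cells.

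Promoter sequences bear on these genes because several are known targets of the factors that other members encode. RefSeq start site windows of GRCm38.p6, which run from 250 bases before to 50 bases after an annotated start, were available for 6 members in 8 windows (*Traf1*, *Il4i1*, *Icam1*, *Nfkbia*, *Ebi3* and 3 windows of *Nfkb2*). *Cd40*, *Cd83*, *Cd86* and *Relb* had no entry. Both strands were searched for the κB consensus. *Nfkbia* held a match 29 bases before its start, *Ebi3* a match 44 bases before, and the first *Nfkb2* window overlapping matches 39 and 38 bases before together with a match 11 bases before. Of all 32851 windows, 4.51% held a match, and 5.14% of the 27025 genes had at least 1 window with a match. The windows of *Traf1*, *Il4i1* and *Icam1* had none, which says only that these letters are not in those 300 bases. Of the other *Nfkb2* windows, which overlap, one held matches 236 bases before and 10 bases after its start and the other a match 225 bases before. The windows of *Nfkbia* and *Ebi3* and the first of *Nfkb2* are printed with *Il4i1*, the member with the largest difference between centrocytes and centroblasts, for contrast. They run 5′ to 3′ on the strand of the gene, and capitals mark the κB matches.
Nfkbia, chr12:55492598-55492897, minus strand: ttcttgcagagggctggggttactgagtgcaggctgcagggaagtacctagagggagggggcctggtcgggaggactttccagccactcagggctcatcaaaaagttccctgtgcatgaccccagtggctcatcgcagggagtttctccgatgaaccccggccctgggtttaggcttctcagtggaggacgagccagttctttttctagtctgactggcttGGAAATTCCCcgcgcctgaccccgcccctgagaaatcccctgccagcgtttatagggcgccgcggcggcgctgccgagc
Ebi3, chr17:55952373-55952672, plus strand: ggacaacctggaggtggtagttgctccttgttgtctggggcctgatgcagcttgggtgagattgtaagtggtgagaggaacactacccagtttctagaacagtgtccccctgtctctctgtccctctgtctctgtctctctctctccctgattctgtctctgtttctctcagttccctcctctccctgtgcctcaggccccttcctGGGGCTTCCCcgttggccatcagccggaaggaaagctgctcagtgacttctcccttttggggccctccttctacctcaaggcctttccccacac
Nfkb2, chr19:46304487-46304786, plus strand: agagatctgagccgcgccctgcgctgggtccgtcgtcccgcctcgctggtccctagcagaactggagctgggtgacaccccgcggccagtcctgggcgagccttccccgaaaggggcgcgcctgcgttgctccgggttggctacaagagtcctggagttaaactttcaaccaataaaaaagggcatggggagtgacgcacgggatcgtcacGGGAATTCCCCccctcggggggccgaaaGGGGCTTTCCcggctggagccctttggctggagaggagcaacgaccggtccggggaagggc
Il4i1, chr7:44836038-44836337, plus strand: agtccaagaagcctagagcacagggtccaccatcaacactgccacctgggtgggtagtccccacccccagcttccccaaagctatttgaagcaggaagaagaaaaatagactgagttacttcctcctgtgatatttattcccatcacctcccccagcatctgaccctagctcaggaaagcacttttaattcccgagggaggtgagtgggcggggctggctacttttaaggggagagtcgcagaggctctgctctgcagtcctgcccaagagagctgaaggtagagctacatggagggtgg

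The libraries held 22939 barcodes and 156055938 unique molecular identifiers (UMIs, 1 per captured transcript), or 5223325 to 35354257 per library, and 20847 cells were kept. Library pairs shared 4 to 43 barcodes. *Smc3* itself stood at 144.9, 155.1 and 145.2 CPM (UMIs scaled to the same total in each library and class) in all kept cells of the controls and at 147.4, 28.4 and 160.7 in those of *Smc3* wt/-. It differed by -0.22 to 0.12 on the log2 scale over the cell classes and was called in none (edgeR). Where the 3′ tags lie relative to the deleted exon was not examined, so this level was not taken as a check of the deletion itself. Replicate 2 labelled *Smc3* wt/- stood apart from the other 5 libraries. Of its UMIs, 51.9% fell on immunoglobulin genes (2.37% to 3.899% elsewhere), and 48.9% of its cells were plasma-lineage. In its cells of the centrocyte-like class, GC B-cell markers summed to 140.3 CPM, against 1630 to 2412 in the other libraries. The 14 myeloid markers summed there to 831.6, against 248 to 323. These markers do not bear out the class name in this library, whose cells are kept in the class by clustering alone. Results that rest on this library are therefore given with and without it. Y-linked transcripts stood at 188.7 and 174.8 CPM in *Smc3* wt/wt replicates 1 and 2 and at 54.0 in *Smc3* wt/- replicate 2. The other libraries held 0 to 0.033 CPM of these, with *Xist* at 621.8 to 913.5 CPM. Sex was thus not balanced between genotypes, and a sex covariate was fitted as an alternative.

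Cells were clustered with the 10 members, the other genes of the pathway, their ligands and receptors, and immediate early genes all left out, so that these genes themselves did not enter the clustering. Genes whose levels follow those of the members were not left out. Among these were *Bcl2a1b* and *Bcl2a1d*, which helped to name the centrocyte-like class, so that class is not independent of the members. Centrocyte-like (CC-like, light zone) cells numbered 1268 in 1 cluster, with 76, 342 and 280 cells in *Smc3* wt/wt replicates 1 to 3 and 164, 96 and 310 in *Smc3* wt/- replicates 1 to 3. Its marker genes *Bcl2a1b*, *Bcl2a1d* and *Fcer2a* were among its 10 leading genes, as were the members *Il4i1* and *Cd83*, and 11 of the listed CC-like markers were detected. It was set beside 3082 centroblast-like (CB-like) cells in G2/M, 4954 S-phase GC B-like cells, 538 recycling-like cells led by *Myc* target genes, 1815 naive or memory B-like cells, 2071 plasma-lineage cells and a pair of unnamed GC B-cell clusters called by their leading genes *Pxdc1* (3710 cells, also led by haemoglobin transcripts) and *Mxd3* (2080 cells). *Myc* was higher in CC-like than in recycling-like cells in 5 of 6 libraries, at 78.9 to 201 against 60.1 to 148 CPM. Names rest on transcripts alone, so differences from the states of the study may come from the rebuilt names. T cell-like cells (545) served as a background for free RNA of genes that T cells do not express.

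All 10 members had their highest mean level in CC-like cells among these 8 B-cell classes, and 8 of the 10 had their lowest in plasma-lineage cells. Levels are CPM, the UMIs of a gene scaled to the same total in each library and class, given as the mean of 6 libraries unless stated, and ratios are log2 differences computed within each library after adding 1 CPM, with ± for the SD over libraries. Classes were defined on the same cells, so class comparisons are a description with no test. A gene was counted as higher where the mean ratio was at least 2-fold and all 6 libraries had the same sign.

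**Figure D1:**
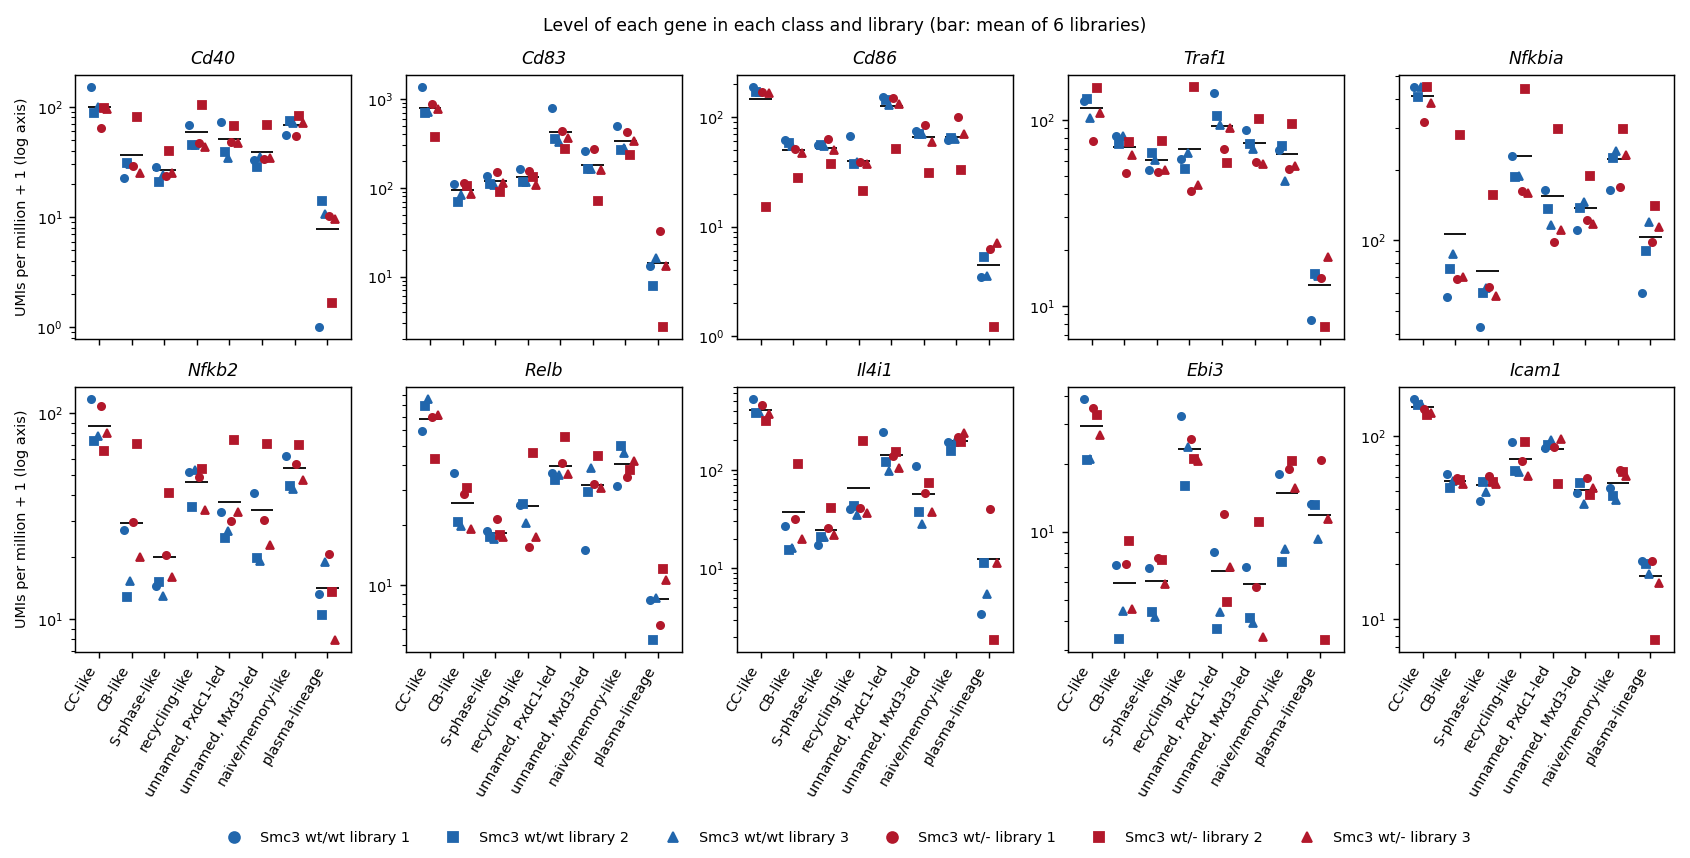
Level of each member in 8 B-cell classes, in CPM plus 1 on a log axis. Each point is 1 library and each bar the mean of 6 libraries. CC-like cells had the highest mean for all 10 members, and plasma-lineage cells the lowest for 8.

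*Cd40* (chr2:165055627-165072948, plus strand, GRCm38) encodes the receptor for CD40 ligand. In CC-like cells it stood at 151.4, 86.2 and 97.8 CPM in *Smc3* wt/wt replicates 1 to 3, and at 63.5, 96.2 and 95.4 in *Smc3* wt/- replicates 1 to 3. The genotypes overlapped, and the mean was 98.4 ± 29.0 (SD, n = 6). CB-like cells held 21.5 to 29.8 in 5 libraries and 80.6 in *Smc3* wt/- replicate 2, so that the CC-like to CB-like ratio averaged 1.55 ± 0.83 and 1.81 without that library. Naive or memory B-like cells came next after CC-like cells, with a mean of 67.3, and were lower in each library, although the ranges of the classes overlapped. Recycling-like cells averaged 57.9, S-phase cells 25.9 and plasma-lineage cells 6.86, and the last did not overlap S-phase cells, the next lowest class.

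*Traf1* (chr2:34941750-34961772, minus strand), an adaptor that binds the tails of CD40 and related receptors with TRAF2, had the smallest CC-like to CB-like ratio of the 10 members. It reached 125.2, 128.3 and 102.1 CPM in CC-like cells of *Smc3* wt/wt replicates 1 to 3 and 76.4, 148.3 and 108.0 in those of *Smc3* wt/-. CB-like cells held 50.6 to 81.3, and the ratio was 0.68 ± 0.22, positive in all 6 libraries but short of 2-fold. Between the *Pxdc1* cluster (92.0) and S-phase cells (59.7), each of the 5 neighbouring steps in the order of classes had overlapping ranges. Plasma-lineage cells (12.0) lay apart from S-phase cells. *Traf1* was also expressed by T cell-like cells, at 124.

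*Nfkbia* (chr12:55489410-55492647, minus strand) encodes IκBα, the inhibitor that NF-κB switches on against itself. Its levels in CC-like cells were 448.5, 407.5 and 449.7 CPM in the *Smc3* wt/wt controls and 317.6, 446.9 and 382.0 in *Smc3* wt/- replicates. The spread was narrow, at 409 ± 52.4. CB-like cells held 56.8 to 86.5 in 5 libraries and 279.5 in *Smc3* wt/- replicate 2, and the ratio was 2.18 ± 0.78, or 2.49 without that library. Recycling-like cells (227) came next, lower in 6 of 6 libraries. S-phase cells (72.9) were the lowest class, below plasma-lineage cells (103). T cell-like cells held 288.

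The subunits of the non-canonical route were also highest in CC-like cells. *Nfkb2* (chr19:46304320-46312385, plus strand) encodes p100, the precursor of p52. It stood at 116.5, 72.1 and 76.5 CPM in CC-like cells of *Smc3* wt/wt and at 107.7, 64.1 and 78.7 in those of *Smc3* wt/-, with replicate 1 of each genotype highest. CB-like cells held 11.8 to 28.6 in 5 libraries. In *Smc3* wt/- replicate 2 they held 69.9, above its CC-like cells, so the ratio was positive in 5 of 6 libraries, at 1.79 ± 0.96, and 2.17 without it. *Relb* (chr7:19606217-19629438, minus strand), the partner of p52, reached 58.3, 77.9 and 85.0 in *Smc3* wt/wt controls and 68.9, 42.1 and 70.7 in *Smc3* wt/- CC-like cells. Against CB-like levels of 18.1 to 35.3 the *Relb* ratio was 1.41 ± 0.69 and positive in all 6 libraries. For both genes naive or memory B-like cells were next, with means of 52.9 for *Nfkb2* and 39.4 for *Relb*, and overlapped the CC-like range. Myeloid-like cells, with 147 for *Relb*, lay above the CC-like mean of 67.1.

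Among the surface molecules, *Cd83* had the largest CC-like to CB-like ratio. CD83 (chr13:43784775-43803132, plus strand) is an activation marker used to sort light zone cells. CC-like cells held 1375, 698 and 713 CPM in *Smc3* wt/wt controls and 868, 371 and 760 in *Smc3* wt/-, with replicate 1 of each genotype highest and *Smc3* wt/- replicate 2 lowest. CB-like cells held 68.5 to 113.0, and the ratio was 2.99 ± 0.62, a fold of 7.97, in 6 of 6 libraries. The *Pxdc1* cluster (421) and naive or memory B-like cells (338) came next and recycling-like cells (131) lay near S-phase cells (117). Every library had more *Cd83* in CC-like than in *Pxdc1* cells.

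*Cd86* (chr16:36603869-36666081, minus strand) encodes a ligand that stimulates T cells through CD28. In 5 libraries its CC-like level was nearly constant, at 189.3, 169.4 and 170.0 CPM in *Smc3* wt/wt controls and 170.1 and 166.5 in *Smc3* wt/- replicates 1 and 3. In *Smc3* wt/- replicate 2 it was 14.0, which rests on 7 UMIs. Its CC-like to CB-like ratio was therefore 1.24 ± 1.05 over 6 libraries with 1 of them negative, and 1.67 over the 5 others with none negative. The *Pxdc1* cluster (125) came close behind, and its own ratio to CB-like cells was 1.29 ± 0.23. Recycling-like cells (39.0) had the lowest level of any GC class.

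*Icam1* (chr9:21015985-21028817, plus strand), which encodes the adhesion ligand of LFA-1 in contacts with T cells, had the smallest spread relative to its mean of the 10 members, 144 ± 11.3. Its values were 160.2, 147.1 and 150.1 CPM in *Smc3* wt/wt controls and 141.0, 130.2 and 132.7 in *Smc3* wt/- CC-like cells. No CC-like library fell within the range of the next class, the *Pxdc1* cluster, with a mean of 84.1. The ratio to CB-like cells, at 51.0 to 61.4, was 1.34 ± 0.12, and the ratio to naive or memory B-like cells 1.39 ± 0.32.

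Of the secreted products, *Il4i1* had the largest CC-like to CB-like ratio of all members. *Il4i1* (chr7:44816387-44840809, plus strand) encodes an amino acid oxidase released by B-cells and myeloid cells. It reached 530.1, 382.4 and 389.4 CPM in *Smc3* wt/wt controls and 454.3, 310.6 and 373.9 in *Smc3* wt/- CC-like cells. CB-like cells held 14.3 to 30.3 in 5 libraries and 112.9 in *Smc3* wt/- replicate 2. The ratio was 3.85 ± 1.21, a fold of 14.4, and 4.33 without that library. Naive or memory B-like cells (155 to 237) were next and did not overlap CC-like cells. *Il4i1* overlaps *Nup62* on the same strand, and how reads of the shared stretch were counted was not examined.

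*Ebi3* (chr17:55952640-55957022, plus strand) encodes the chain that IL-27 and IL-35 share. Its CC-like levels were 37.9, 19.8 and 19.9 CPM in *Smc3* wt/wt controls and 34.5, 32.1 and 25.7 in *Smc3* wt/-, from 195 UMIs in all. CB-like cells held 2.36 to 8.06, with a ratio of 2.34 ± 0.28 in 6 of 6 libraries. Recycling-like cells, at 15.0 to 31.6, came so close that the CC-like cells exceeded them by only 0.32 ± 0.28 and in 5 of 6 libraries. They lay above CB-like cells in every library themselves, by 2.02 ± 0.44. The *Pxdc1* cluster, second for *Cd83* and *Cd86*, was at 5.66 for *Ebi3*, near CB-like cells (4.95).

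**Figure D2:**
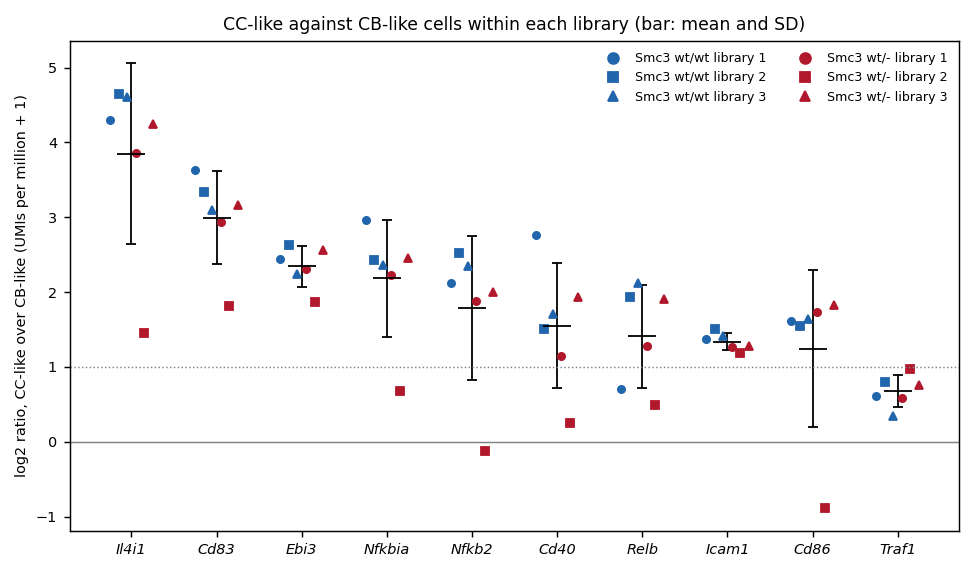
Log2 ratio of the level in CC-like to that in CB-like cells for each member, 1 point per library, with the mean and SD of 6 libraries and a dotted line at a ratio of 1 on the log2 scale (2-fold). *Il4i1* (3.85) and *Cd83* (2.99) had the highest means and *Traf1* (0.68) the lowest, and replicate 2 labelled *Smc3* wt/- was the lowest of the 6 libraries for every member except *Traf1*.

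By the 2-fold rule, 7 of 10 members were higher in CC-like than in CB-like cells, where 5.54% of all 6882 genes tested were (381 genes), and the exceptions were *Cd86*, *Traf1* and *Nfkb2*. Against S-phase cells the count was 8 of 10 beside a background of 2.99%, with *Cd86* and *Traf1* the exceptions. The members' median ratio was 1.67 over CB-like and 2.04 over S-phase cells, against -0.02 for all genes in both comparisons. Without *Smc3* wt/- replicate 2, 9 of 10 members met the rule in each, where 6.04% and 3.21% of genes did, and *Traf1* did not meet it over CB-like cells. *Ebi3* passed the minimum of 10 CPM in these comparisons, and in those with the *Pxdc1* and *Mxd3* clusters, only through CC-like cells. Among the 9 other members 6 met the rule over CB-like and 7 over S-phase cells.

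Recycling-like cells were closer. In all 6 libraries only *Cd83* and *Il4i1* met the rule over them, 2 of 10 members beside 6.16% of genes, with a median ratio of 0.95. Without *Smc3* wt/- replicate 2 the count became 8 of 10 beside 7.06%, with *Cd40* and *Ebi3* the exceptions. In that library the recycling-like class held 27 cells, its myeloid markers summed to 2437 CPM against 144 to 185 elsewhere, and its *Nfkbia*, *Traf1* and *Il4i1* levels were 440.9, 150.3 and 195.4 against highest values of 228.5, 65.7 and 42.01 in the other libraries. The part of these cells in the result was not tested beyond leaving the library out.

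Against the *Pxdc1* cluster 3 members met the rule (*Nfkbia*, *Il4i1*, *Ebi3*; background 9.76%), and against the *Mxd3* cluster 6 did (background 5.81%), or 2 and 5 of the 9 other than *Ebi3*. Against naive or memory B-like cells 4 did (*Cd83*, *Il4i1*, *Ebi3*, *Icam1*; background 11.3%). All 10 members met it against plasma-lineage cells, 3 of them (*Cd40*, *Cd86* and *Relb*) above the minimum only through CC-like cells, but so did 42.2% of all genes tested, whose median ratio was 0.91. Without *Smc3* wt/- replicate 2 these counts were 6, 9, 5 and 10, beside 8.88%, 6.27%, 12.7% and 30.1% of genes.

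Cells that held UMIs of several members were also counted. Whether they were more frequent than separate detection of each gene would give was not tested. Cells were thinned to 2000 UMIs, which left out cells with fewer: 25 of 1268 CC-like, 701 of 1815 naive or memory B-like, 401 of 3710 *Pxdc1*, 147 of 3082 CB-like and 365 of 545 T cell-like cells, and none of the recycling-like cells. Of the 1243 CC-like cells left, 52.7% held UMIs of at least 3 of the 10 genes, and 7.88% held none. The share in CC-like cells was 59.7%, 52.2% and 54.3% in *Smc3* wt/wt controls and 52.5%, 37.5% and 54.6% in *Smc3* wt/-, with *Smc3* wt/- replicate 2 lowest. Next came naive or memory B-like cells (22.2%), the *Pxdc1* cluster (18.9%) and recycling-like cells (12.8%), while S-phase cells (6.53%), CB-like cells (5.04%) and plasma-lineage cells (0.486%) were below T cell-like cells (10.6% of 180 cells). The T cell-like value includes *Traf1* and *Nfkbia*, which T cells express, and the T cell-like cells used had a median depth of 2780 UMIs before thinning, against 5510 in CC-like cells. Without thinning the share was 85.5% of all CC-like cells, 81.2% of recycling-like cells, whose median depth was 19535.5 UMIs, and 10.3% of T cell-like cells, whose median was 1644.

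**Figure D3:**
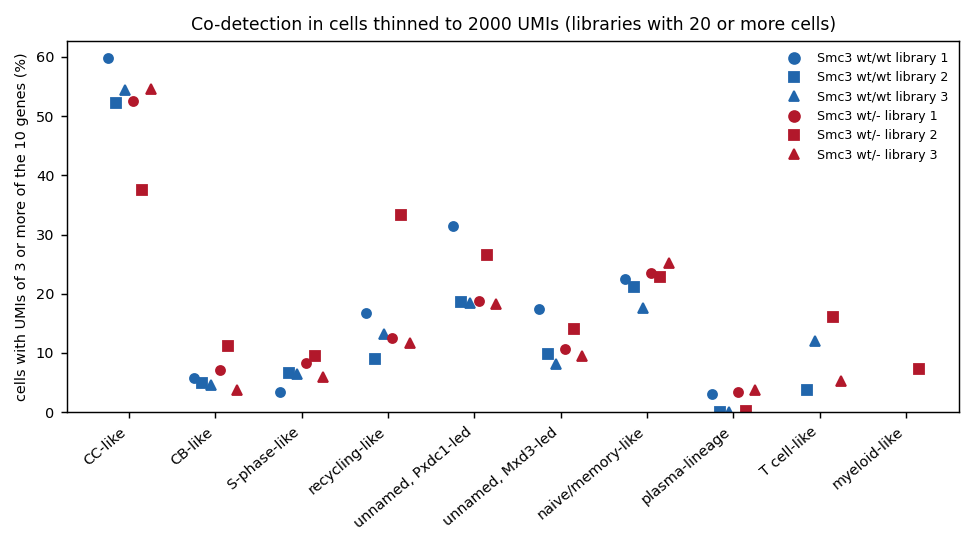
Percent of cells with UMIs of at least 3 of the 10 members after thinning each cell to 2000 UMIs, by class, 1 point per library with at least 20 cells. CC-like libraries sat at 37.5% to 59.7%, and CB-like cells at 5.04% over all libraries.

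Gene by gene, *Cd83* was seen in 68.7% of CC-like, 13.4% of CB-like and 10.6% of T cell-like cells. *Il4i1* was seen in 44.2% and 3.27% and in 0 of 180 T cell-like cells, whose upper 95% limit was 2.03% (exact binomial interval, counting error only). For *Cd40* the shares were 17.5%, 5.69% and 0.556%, for *Cd86* 27.8%, 10.4% and 2.22%, and for *Ebi3* 4.18%, 0.579% and 0.556%. The CB-like share of *Ebi3* was thus at the level of T cell-like cells, and that of *Cd83* little above it. *Icam1* (22.7%, 10.8% and 8.33%), *Nfkb2* (15.5%, 3.44% and 6.11%) and *Relb* (13.7%, 4.50% and 8.89%) had CB-like shares near or below those of T cell-like cells. For *Traf1* and *Nfkbia* the T cell-like shares of 27.2% and 38.9% are no background, because T cells express these genes. Whether T cell-like cells also express *Cd83*, *Icam1*, *Nfkb2* and *Relb* was not tested. Their T cell-like shares are thus not a measure of free RNA alone, and do not place CB-like cells at background.

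Whether the members were higher in cells that carried *Myc* transcripts was tested across CB-like, S-phase, CC-like and recycling-like cells. Cells were thinned to 2000 UMIs and divided by at least 1 *Myc* UMI, which gave 49, 102 and 99 *Myc*-detected cells in *Smc3* wt/wt controls and 73, 26 and 105 in *Smc3* wt/-, beside 257 to 2524 undetected cells. With the library as a block, 4.64% of 5365 genes were called higher in *Myc*-detected cells (249, with 219 lower; edgeR, adjusted p under 0.05). Of the 9 members that could be tested, 8 rose and none fell, with a median log2 fold change of 1.35 against -0.01 for all genes. *Ebi3* was too low to be tested.

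*Nfkbia* stood at 384.6 to 683.7 CPM in *Myc*-detected cells (median 514.2) and at 77.7 to 264.6 (median 108.3) in undetected cells, higher in 6 of 6 libraries. It rose by 2.17 on the log2 scale (SE 0.12, adjusted p = 4.77e-23). *Il4i1* went from 58.3 to 180.9 (median 73.5) in undetected to 313 to 439 (median 359) in detected cells, by 2.17 (SE 0.13, adjusted p = 8.64e-23). For neither gene did the detected and undetected libraries overlap.

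The surface molecules rose to different extents. *Cd83* rose by 1.71 (SE 0.086, adjusted p = 6.38e-26), from a median of 203.5 to one of 656.1 CPM, and *Icam1* by 1.75 (SE 0.14, adjusted p = 1.41e-16), from 66.5 to 230.4, with no overlap between detected and undetected libraries. *Cd86* rose least of the members called, by 0.60 (SE 0.18, adjusted p = 0.0183), was higher in 4 of 6 libraries and moved only from a median of 80.3 to 94.5. Its call was lost without *Smc3* wt/- replicate 3 (0.30) or *Smc3* wt/wt replicate 1 (0.55), with DESeq2 (0.55, adjusted p = 0.303), without the filter on low counts (0.51, adjusted p = 0.0734), with cells thinned to 1000 UMIs (0.76, adjusted p = 0.193) and without thinning (0.03, adjusted p = 0.787). At 1000 UMIs the calls of *Traf1* (0.67, adjusted p = 0.323) and *Nfkb2* (1.23, adjusted p = 0.134) were lost too.

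*Cd40* rose by 1.35 (SE 0.21, adjusted p = 2.45e-06), from a median of 34.9 to 84.9 and in 5 of 6 libraries, with *Smc3* wt/- replicate 2 the exception at 38.5 (2 UMIs) in 26 detected cells against 75.9. *Nfkb2* rose by 1.19 (SE 0.25, adjusted p = 0.000397), also in 5 of 6 libraries, and *Traf1* by 0.83 (SE 0.16, adjusted p = 0.000178) in 6 of 6. *Relb* was 34.2 to 57.1 in detected and 23.9 to 37.0 in undetected cells, a difference of 0.69 (SE 0.27, adjusted p = 0.111) that was not called although all 6 libraries had the same sign. In the detected cells of *Smc3* wt/- replicate 2 *Relb* rests on 2 UMIs, and *Nfkb2* on 1. Without *Smc3* wt/- replicate 2, *Ebi3* could be tested and rose by 1.83 (adjusted p = 0.00655), and *Relb* stayed uncalled at 0.77 (adjusted p = 0.0605), so that 9 of 10 were called beside 4.95% of genes called higher. DESeq2 called 7 members higher beside 2.79% of genes. Without thinning, where 23.9% of 9917 genes were called higher, the members' differences were smaller, at 0.98 for *Il4i1*, 0.83 for *Cd83*, 0.79 for *Icam1*, 0.82 for *Cd40* and 0.30 for *Traf1*, while *Relb* was called at 0.31 (adjusted p = 0.00651).

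**Figure D4:**
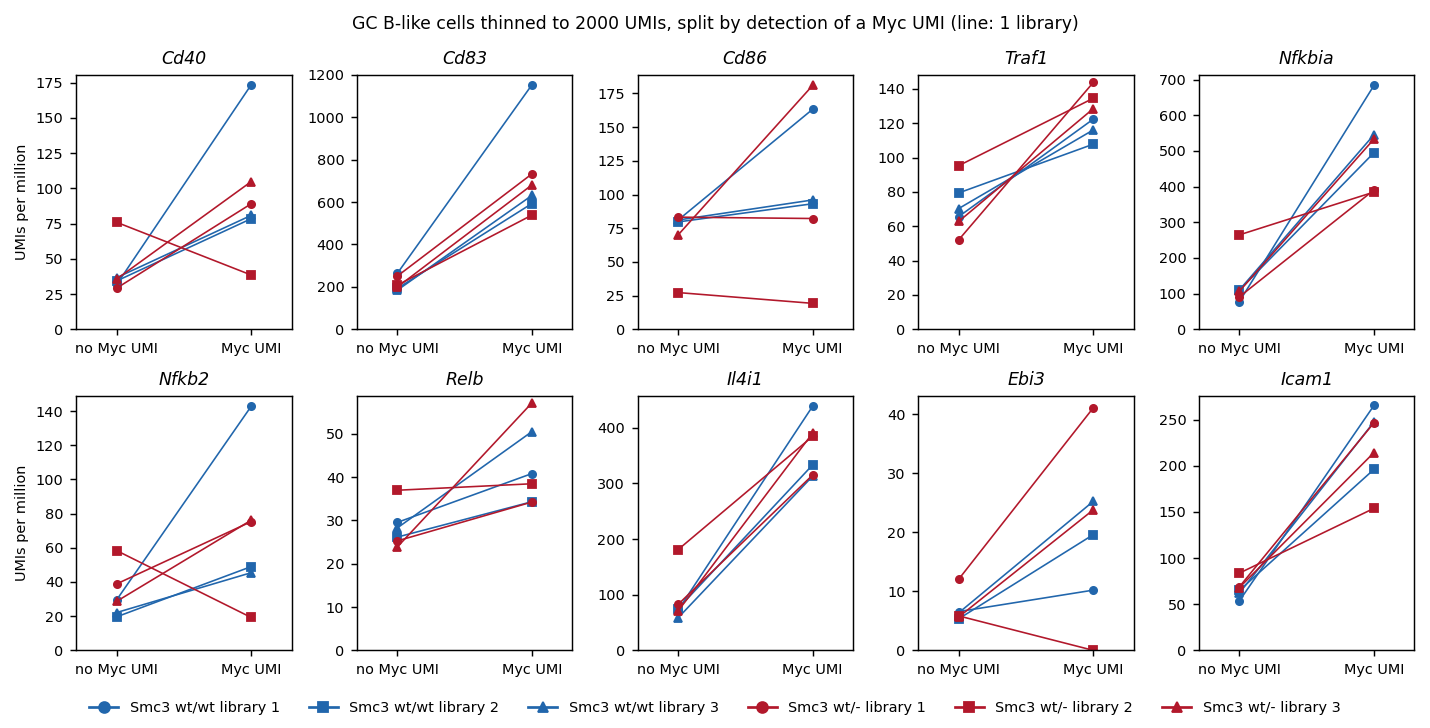
Level of each member (CPM, cells thinned to 2000 UMIs) in *Myc*-undetected and *Myc*-detected GC B-like cells, with 1 line per library. The lines of *Nfkbia*, *Il4i1*, *Cd83*, *Icam1*, *Traf1* and *Relb* rise in 6 of 6 libraries, and those of *Cd86* in 4.

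The classes contributed unequally to this split. CC-like cells made up 32.9% to 50% of *Myc*-detected cells and 10.5% to 29.2% of undetected cells. Within CC-like cells alone 5 members were called, namely *Icam1* (1.87), *Nfkbia* (1.36), *Traf1* (0.92), *Il4i1* (0.84) and *Cd83* (0.71), beside 1.45% of 2214 genes called higher. In recycling-like cells alone *Nfkbia* was called (1.48), beside 0.337% of 1187 genes. In CB-like and S-phase cells together *Nfkbia* (1.35) and *Cd83* (1.03) were called, beside 0.0987% of 4052 genes, and there *Cd86* and *Traf1* had negative differences of -0.45 and -0.20 that were not called. Immediate early genes, which antigen receptor signals and cell handling both raise, moved with *Myc* detection as well. Of the 8 tested, 4 rose: *Nr4a1* by 2.82, *Egr1* by 2.06, *Junb* by 1.61 and *Ier2* by 1.55. Their part in the members' result was not tested.

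The rest of the pathway was followed in a list of 32 genes. In the *Myc* comparison 24 of them were tested, 8 rose and none fell. These were 4 of 5 members of the IκB family and its nuclear relatives, *Nfkbid* (2.68, adjusted p = 1.14e-18), *Nfkbiz* (1.58, adjusted p = 0.00111), *Nfkbie* (1.23, adjusted p = 5.63e-05) and *Bcl3* (1.04, adjusted p = 0.0110). They further included the subunit gene *Rel* (1.11, adjusted p = 3.26e-08) as 1 of 3 subunits, the ubiquitin ligases *Birc3* (2.03, adjusted p = 7.33e-12) and *Birc2* (0.78, adjusted p = 0.0382) among 8 adaptors tested, and the survival gene *Bcl2l1* (1.73, adjusted p = 3.51e-05) among 4 targets tested. None of 2 kinases and 2 negative regulators tested passed. The count of 8 became 5 without *Smc3* wt/wt replicate 3 and 11 without *Smc3* wt/- replicate 2, 3 with cells thinned to 1000 UMIs and 16 without thinning, and the share of all genes called higher moved as well, to 3.79%, 4.95%, 1.39% and 23.9%. It was 4 in CC-like cells alone and 0 in recycling-like cells alone and in CB-like and S-phase cells alone.

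By the 2-fold rule, 3 of 27 pathway genes were higher in CC-like than in CB-like cells, beside 5.54% of all genes, namely *Nfkbid* (4.02 ± 0.75), *Nfkbiz* (1.72 ± 0.76) and *Nfkbie* (1.41 ± 0.34), and *Traf5*, a TRAF adaptor, was lower in 6 of 6 libraries (-1.20 ± 0.21), 1 of 27 beside 5.71% of all genes. Over S-phase cells 9 of 26 met the rule, beside 2.99%, among them *Rel*, *Bcl3*, *Traf3*, *Birc3*, *Tank* and *Bcl2l1*. Kinases of the route met it in neither comparison.

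Transcripts for the partners of the members were followed across the classes. *Cd40lg*, the ligand of CD40, had 99 UMIs in all, of which 87 were in T cell-like cells (mean 66.9 CPM) and 0 in CC-like cells, which allows a level of up to 0.379 CPM (3 counts of all UMIs of the class, counting error only). *Cd28* and *Ctla4*, receptors of CD86, averaged 316 and 48.6 in T cell-like cells and 0.427 and 6.08 in CC-like cells. *Cd28* was also present in plasma-lineage cells, which held 1431 of its 1868 UMIs. *Itgal* and *Itgb2*, the chains of the ICAM1 receptor LFA-1, averaged 76.4 and 254 in T cell-like and 24.8 and 94.2 in CC-like cells. *Il27*, whose product pairs with EBI3 in IL-27, had 118 UMIs, of which 90 were in recycling-like cells, where *Ebi3* was also high, and 1 in CC-like cells. *Il12a*, whose product pairs with EBI3 in IL-35, averaged 7.99 in CC-like and 6.67 in CB-like cells, and the latter held 98 of its 437 UMIs, the most of any class. *Il27ra* and *Il6st*, the receptor chains of IL-27, averaged 69.8 and 46.4 in T cell-like and 3.07 and 2.15 in CC-like cells.

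Libraries labelled *Smc3* wt/- were compared with those labelled *Smc3* wt/wt within each class. Loss of the allele was not checked in any class. In CC-like cells no member was called between genotypes, as no gene was among 7644 tested (0%, edgeR, adjusted p = 0.999 for each member). At an unadjusted p under 0.05 there were 160 genes and 0 members in edgeR and 106 genes in DESeq2, which called 0 genes. *Smc3* wt/- differed by -0.51 (SE 0.47, 95% interval -1.56 to 0.54) for *Cd86*, -0.43 (SE 0.31, -1.11 to 0.25) for *Cd83* and -0.27 (SE 0.26, -0.85 to 0.32) for *Cd40* on the log2 scale. The narrowest interval was that of *Icam1*, at -0.13 (-0.47 to 0.22). These became, without *Smc3* wt/- replicate 2, -0.09 for *Cd86*, -0.19 for *Cd83* and -0.36 for *Cd40*, and with any 1 library left out they ranged from -0.86 to -0.09, -0.58 to -0.10 and -0.41 to -0.04. Differences were negative for 8 of 10 members, with *Nfkb2* (0.04) and *Ebi3* (0.42) the exceptions, and their median was -0.13 against -0.01 for all genes. Without *Smc3* wt/- replicate 2 they were again negative for 8, with a median of -0.19. The other lists leaned the same way in CC-like cells with none called, as 21 of 29 pathway genes (median -0.14) and 8 of 9 immediate early genes (median -0.24) were lower in *Smc3* wt/-.

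*Icam1* was the only member whose CC-like libraries did not overlap between genotypes, lower in *Smc3* wt/- by the values given above, where 7.77% of all genes did not overlap in either direction. Replicate 1 of each genotype was highest in *Cd83*, *Nfkb2*, *Ebi3* and *Il4i1*, and these were also the CC-like sums with the highest immediate early genes, at 1826 and 1535 CPM against 611 to 1012 in the other 4 libraries. For *Cd40*, *Traf1* and *Nfkbia*, *Smc3* wt/- replicate 1 was instead the lowest library. The part of the immediate early genes in these levels was not tested.

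In CB-like cells 8 of 10 members were higher in *Smc3* wt/-, with a median of 0.25, led by *Il4i1* (1.14, SE 0.58), *Nfkb2* (0.96, SE 0.43, unadjusted p = 0.0505 in edgeR) and *Nfkbia* (0.72, SE 0.54). None was called, and 256 of 9070 genes reached an unadjusted p under 0.05. Without *Smc3* wt/- replicate 2 the count became 5 of 10 and the median 0.0034, with *Il4i1* at 0.52, *Nfkb2* at 0.62 (unadjusted p = 0.0338, edgeR), *Nfkbia* reversed to -0.19 and *Traf1* lowest at -0.46 (unadjusted p = 0.0161), where 427 of 9599 genes were under 0.05. *Cd86* was the only member without overlap, at 61.4, 57.4 and 53.8 CPM in *Smc3* wt/wt controls and 50.6, 26.9 and 46.4 in *Smc3* wt/- (-0.34, SE 0.17), beside 9.45% of genes.

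In S-phase cells 8 members were higher and the median was 0.19, or 0.12 with 8 higher when *Smc3* wt/- replicate 2 was left out. *Il4i1* stood at 16.4, 19.7 and 19.6 CPM in *Smc3* wt/wt controls and 24.5, 40.04 and 20.8 in *Smc3* wt/-. *Nfkb2* stood at 13.5, 14.2 and 12.0 against 19.5, 40.04 and 15.1. Neither gene overlapped between genotypes, where 7.37% of genes did not, and neither was called (adjusted p = 0.9998 for each, edgeR, 189 genes at an unadjusted p under 0.05). With the replicate number as a block *Nfkb2* differed by 0.76 (SE 0.27) and *Il4i1* by 0.50 (SE 0.22), with an adjusted p of 0.99996 each, and 294 genes reached that unadjusted p. They differed by 0.32 and 0.19 without *Smc3* wt/- replicate 2 and without the block.

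Recycling-like cells showed no member without overlap beside 8.24% of genes. There 7 of 10 members were higher in *Smc3* wt/- with a median of 0.04, and this turned to 1 of 10 and -0.17 without *Smc3* wt/- replicate 2. The largest differences were then those of *Relb* (-0.55, unadjusted p = 0.0430), *Traf1* (-0.54, unadjusted p = 0.00777) and *Nfkbia* (-0.33, unadjusted p = 0.0375), with an adjusted p of 0.99996 each in edgeR and 302 of 8669 genes under an unadjusted 0.05. In naive or memory B-like cells *Icam1* was at 50.8, 46.1 and 44.1 CPM in *Smc3* wt/wt controls and 64.4, 63.2 and 59.4 in *Smc3* wt/- (0.45, SE 0.20, unadjusted p = 0.0432). *Il4i1* likewise did not overlap, at 155 to 192 against 193 to 237, beside 5.94% of genes. *Ebi3* differed by 1.07 (SE 0.39, unadjusted p = 0.0211), with overlapping libraries. None of these passed adjustment (adjusted p = 0.999 each, edgeR), and 144 of 7004 genes were under an unadjusted 0.05. When *Smc3* wt/- replicate 2 was left out, *Icam1* differed by 0.35 (unadjusted p = 0.125, edgeR) and *Ebi3* by 0.87 (unadjusted p = 0.0791), and the members higher went from 8 of 10 with a median of 0.22 to 6 of 10 with a median of 0.10.

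**Figure D5:**
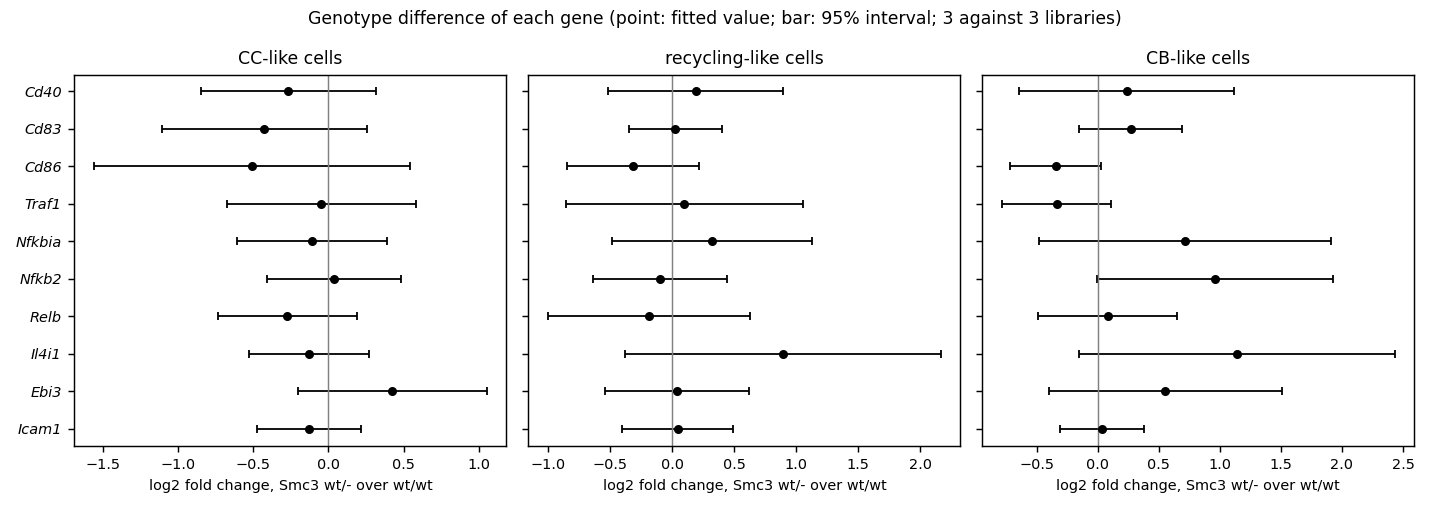
Log2 fold change of each member in *Smc3* wt/- over *Smc3* wt/wt with its 95% interval in CC-like, recycling-like and CB-like cells (edgeR, 3 libraries per genotype). All 30 intervals include 0.

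Whether the genotype difference itself depended on the state was tested as an interaction of genotype with CC-like against CB-like cells, where no gene of 9275 was called (0%) and 285 reached an unadjusted p under 0.05. *Il4i1* had a difference of -0.93 (SE 0.35, unadjusted p = 0.0146) and *Nfkb2* of -0.74 (SE 0.30, unadjusted p = 0.0215), with an adjusted p of 1 each in edgeR. Both directions were kept without *Smc3* wt/- replicate 2, at -0.54 (adjusted p = 0.902) and -0.48 (adjusted p = 0.9999). Over the other classes that could be tested (plasma-lineage, *Pxdc1*, *Mxd3* and all kept cells) no member was called between genotypes by edgeR or DESeq2. In the *Pxdc1* cluster *Traf1* was the only member without overlap, at 138.6, 103.9 and 93.0 CPM in *Smc3* wt/wt controls and 68.9, 58.0 and 89.7 in *Smc3* wt/- (-0.38, SE 0.18, unadjusted p = 0.0574, edgeR), beside 8.13% of genes. It was also the only one over all kept cells (-0.26, SE 0.16), beside 7.84%, and differed there by -0.33 without *Smc3* wt/- replicate 2 (unadjusted p = 0.0504, edgeR). Of the kept cells of that replicate 48.9% were plasma-lineage, the class lowest in *Traf1*. The part of this make-up in the difference was not tested. *Ebi3* differed by 1.13 in the *Pxdc1* cluster (SE 0.42, unadjusted p = 0.0188, where 197 of 8209 genes were under 0.05), with overlapping libraries that held as few as 1 UMI.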

How the data were processed

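UMI counts per gene and cell were deposited by the authors as whole numbers, not normalized, for 6 libraries of 3′ single cell RNA-seq on the 10x Chromium platform. The submitters' processing notes name Cell Ranger, R 4.0.2, Seurat 4.0.0 and the build mm10. Gene coordinates are from GENCODE M21 (GRCm38). Chromium counts are of the sense strand by the manufacturer's settings.

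Of 22939 barcodes, 21568 had 500 genes or more and no more than 10% mitochondrial UMIs and were used. The 721 highest Scrublet scores were removed as doublets, at 0.8% per 1000 barcodes. Cells were clustered in Seurat 5.3.0 (R 4.3.3) from 1837 variable genes after reciprocal PCA integration of libraries, with 30 components, 20 neighbours and a resolution of 0.5, and clusters were named from marker lists. No cell annotation was used. All columns were mapped to a library.

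UMIs were summed per library and class, since cells are not replicates, and tested in edgeR 4.0.16 (TMM, filterByExpr, quasi-likelihood, Benjamini-Hochberg over all genes tested, 0.05) with 3 against 3 libraries, in classes with at least 20 cells in each library. The interaction and *Myc* fits took the library as a block. Ratios of classes used genes with a mean of at least 10 CPM (UMIs scaled to the same total in each library and class). Depth was 5223325 to 35354257 UMIs per library. Intervals on shares are exact 95% binomial intervals and cover counting error only.

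The members, the gene lists and the markers were chosen with earlier results of these data known. All 10 members are named, with up to 8 called genes of the pathway list, every partner gene with at least 10 UMIs and the 8 genes of most similar pattern.

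Replicate numbers are shared between genotypes. After subtraction of the group means, libraries with the same number correlated across genes at 0.254, 0.126 and 0.167 in S-phase cells, where the numbers were taken to pair the libraries (the values reported are without the block unless it is named), and at 0.142, 0.017 and 0.171 in CC-like cells, where they were not.

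The fits were tested on simulated data. At a log2 change of 1, 30% of 100 changed genes were recovered in the CC-like genotype fit, 60% in the CB-like fit and 74% in the *Myc* fit, and 80%, 93% and 99% at a change of 2. Of the calls, 9.09%, 8.93% and 4.42% were false, in the same order. Alternatives were DESeq2 1.42.0, RLE scaling, omission of the low-count filter or of immunoglobulin genes, a replicate block, a sex covariate, retention of doublets, clustering without integration or at a resolution of 1, a thinning depth of 1000 UMIs or none, single classes in the *Myc* fit, and each library left out. Python 3.11.15 with scanpy 1.11.5, scipy 1.17.1, pandas 2.3.3, numpy 2.4.6 and matplotlib 3.10.9, and limma 3.58.1, were used.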

Additional observations from a re-analysis of the deposited data

Results flagged for a closer look

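In each group of 6 libraries the highest or lowest value was compared with the rest by Dixon's criterion. Of 50 such groups 13 were flagged, where chance flags about 1 in 20, and each of the 13 was flagged for replicate 2 labelled *Smc3* wt/-. This library holds few GC B-cells (69 CB-like, 96 CC-like and 27 recycling-like cells).

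In its CB-like cells *Cd40* was 80.6 CPM (others 21.5 to 29.8), *Nfkbia* 279.5 (56.8 to 86.5), *Il4i1* 112.9 (14.3 to 30.3) and *Cd86* 26.9 (46.4 to 61.4). In its recycling-like cells *Traf1* was 150.3 (40.6 to 65.7), *Nfkbia* 440.9 (158.7 to 228.5) and *Il4i1* 195.4 (33.9 to 42.01). *Cd86* in its CC-like cells was 14.0 (166.5 to 189.3).

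The log2 ratio of CC-like to CB-like cells was -0.89 for *Cd86* (others 1.55 to 1.82), 0.68 for *Nfkbia* (2.22 to 2.96), -0.12 for *Nfkb2* (1.88 to 2.52) and 1.45 for *Il4i1* (3.86 to 4.64). The log2 ratio of *Myc*-detected to undetected cells was -1.23 for *Nfkb2* (0.79 to 1.95), after adding 10 CPM. The *Myc*-detected value of *Nfkb2* in this library rests on 1 UMI. In the CB-like cells of this library GC B-cell markers summed to 698.7 CPM against 1865 to 2630 elsewhere, and myeloid markers to 1062 against 208 to 234. Their part in these values was not tested.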

How the results depend on the processing

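No member was called between genotypes in any class under any alternative. Counts of all genes called, 0 in each class as reported, became 1 with DESeq2, 1 without integration and 2 without the low-count filter in CB-like cells, and 0 to 2 when 1 library was left out. Without the filter they became 4 in CC-like, 33 in naive or memory B-like, 6 in plasma-lineage, 16 in recycling-like, 17 in *Mxd3* and 44 in *Pxdc1* cells. Recycling-like cells gave 1 with DESeq2 and 1 with sex as a covariate. *Pxdc1* cells gave 2 without integration and 2 with the replicate block. Leaving out 1 library gave 0 to 1 in plasma-lineage, 0 to 2 in *Mxd3* and 0 to 4 in *Pxdc1* cells. The interaction gave 1 gene with RLE scaling, 15 without the filter, when 1 member, *Il4i1*, was called, and 0 to 7 with 1 library left out. The replicate block, fitted because the replicate numbers recur in both genotypes, changed no other call. In CC-like cells *Traf1* turned to 0.12 with sex as a covariate and *Nfkb2* to -0.017 with the replicate block, and leaving out 1 library moved *Traf1* from -0.34 to 0.21, *Nfkbia* from -0.33 to 0.060 and *Nfkb2* from -0.10 to 0.17.

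The *Myc* comparison, with 468 genes and 8 members called, gave 124 genes and 5 members at 1000 UMIs per cell, 38 and 5 in CC-like, 12 and 1 in recycling-like and 9 and 2 in CB-like and S-phase cells alone, where *Cd86* (-0.45) and *Traf1* (-0.20) changed sign. DESeq2 gave 233 genes (149 higher of 5333) and 7 members, and no thinning 4640 genes (2366 higher of 9917) and 9 members, with smaller differences (*Cd86* 0.03, *Traf1* 0.30). The 8 pathway genes became 3 at 1000 UMIs, 16 without thinning and 5 to 11 with 1 library left out. Leaving out 1 library gave 279 to 554, with the lowest counts without *Smc3* wt/- replicate 3 (279) and *Smc3* wt/wt replicate 2 (291). Members higher in CC-like than in recycling-like cells numbered 2 to 8 with 1 library left out (beside 6.01% to 7.06% of genes; 8 and 7.06% without *Smc3* wt/- replicate 2). With doublets kept they numbered 9 beside 4.12%, but there the class named recycling-like held 1844 cells in place of 538, so the cells differed too. Over naive or memory B-like cells they numbered 1 without integration (12.6% of genes) and 2 to 5 with 1 library left out (10.8% to 12.7%; 2 without *Smc3* wt/wt replicate 2). Over the *Pxdc1* cluster the 3 became 1 at a resolution of 1 (12.9% of genes) and 5 with doublets kept (9.09%). The causes of these changes were not tested. Recycling-like cells were not tested without integration, where 1 library held 17, and without integration, at a resolution of 1 and with doublets kept the clusters with *Mxd3* among their leading genes were named CB-like, which then held 4968, 5039 and 6184 cells in place of 3082. Depth limits *Ebi3* most, with 195 UMIs in CC-like cells, and *Cd86* in *Smc3* wt/- replicate 2.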

Other observations

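Across 59 sums of a class and a library (12 classes), 5134 genes were ranked by how closely their level followed the mean of the 10 members, by Pearson's r between log2 values after adding 10 CPM. The points share libraries and classes, so r is a description. The 8 closest were *Bcl2a1b* (0.86), *Birc3* (0.82), *Bcl2a1d* (0.80), *Samsn1* (0.79), *Cnpy3* (0.77), *Nfkbie* (0.75), *Rel* (0.75) and *Ncf1* (0.75). *Bcl2a1b* and *Bcl2a1d*, near-identical copies of a survival gene whose reads can be hard to tell apart, were among the markers that named CC-like cells, and *Birc3*, *Nfkbie* and *Rel* were in the pathway list. Among the members themselves, *Icam1* (0.87), *Il4i1* (0.82) and *Cd83* (0.80) followed the mean of the other 9 most closely, and *Nfkbia* (0.56) and *Ebi3* (0.39) least.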
